A study of Sus scrofa with 12 samples.

Results

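Transcripts of STAR, CYP11A1, FDX1, FDXR and HSD3B1 were measured in the ovaries of 12 pregnant sows. These genes encode the proteins and redox partners that turn cholesterol into progesterone. The transcript of POR, the electron donor of another P450 system, was measured beside them. The genes were taken as every probe set whose only gene symbol in the array annotation was one of these names. All 6 genes were on the array, of 6765 genes with 1 symbol, and were read by 11 probe sets, all of which passed the filter on dim signals. The sows belonged to an F2 cross of Iberian and Meishan pigs and were slaughtered on day 30 of pregnancy. They formed a high and a low prolificacy group of 6 each, set by a higher or lower EBV (estimated breeding value), and no treatment or allele is named for either group. The deposited table has 1 column per sow, described as the average of its right and left ovary, and the labels do not say whether tissue, RNA or values were averaged. Every value is from whole ovary, and fewer cells of a type cannot be told apart from less RNA per cell.

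Progesterone is made in the corpus luteum, the gland that an ovulated follicle turns into, and in the pig the corpora lutea maintain pregnancy throughout. STAR carries cholesterol to the inner mitochondrial membrane, where the cytochrome P450 CYP11A1 cuts off its side chain to give pregnenolone. CYP11A1 receives its electrons from FDX1 (adrenodoxin), a small iron-sulphur protein, which FDXR (adrenodoxin reductase) recharges from NADPH. HSD3B1, 3 beta-hydroxysteroid dehydrogenase, then turns pregnenolone into progesterone. POR, cytochrome P450 oxidoreductase, is the electron donor of the other P450 system, that of the endoplasmic reticulum.

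Luteal transcripts were abundant in every ovary: relaxin (RLN2) lay between 14.92 and 15.21 and the prostaglandin F receptor PTGFR between 12.93 and 13.85, on the log2 scale of the deposited values. Oxytocin (OXT), also fixed as a luteal marker, lay under 2 in every sow. Some markers of growing follicles differed far more between sows, but not all of them. The granulosa marker INHBA ran only from 6.22 to 7.03, and the luteal marker LHCGR ran from 10.09 to 12.81. The aromatase transcript read as CYP19A3, made by granulosa cells, ran from 3.86 to 12.74. Of 12 granulosa markers 11 were on the array and 5 passed the filter. Their mean, centred on the 12 sows, spanned -2.59 to 1.99 among high prolificacy sows and -0.94 to 1.66 among low ones. The 5 T and B lymphocyte markers on the array lay under 4 in all sows. The difference between the 3' and 5' actin control probe sets, a sign of RNA integrity, was 1.95 to 3.23 in the high group and 1.97 to 2.35 in the low group. The brightest probe set of each array read 15.23 to 15.34.

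STAR, the cholesterol carrier, lay close to that ceiling. Its brightest probe set read 14.04, 14.68 and 14.80 as lowest, median and highest value in high prolificacy sows, and 14.48, 14.60 and 14.74 in low prolificacy sows. The means were 14.56 ± 0.28 and 14.61 ± 0.11 (SD, n = 6 each). The second STAR probe set read 12.82, 13.85 and 14.15 in high sows and 13.66, 13.93 and 14.37 in low sows. In both, high 3 was the lowest of the 12 sows and high 1 the next, and the other high sows overlapped the low group. High minus low was -0.052 ± 0.13 (SE) and -0.26 ± 0.20, with adjusted p of 0.987 and 0.929 (limma, Benjamini-Hochberg over 13390 probe sets). Without high 3 they were 0.051 and -0.083. Across the 12 sows the brightest probe set spanned 1.69-fold and the dimmer one 2.93-fold. Spans and differences read this close to the ceiling may be compressed, which was not tested.

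CYP11A1, the side-chain cleavage enzyme, was read by a single probe set. It measured 13.07, 13.57, 12.71, 13.89, 13.74 and 13.70 in high sows 1 to 6. In low sows 1 to 6 it measured 13.60, 13.83, 13.58, 13.51, 13.84 and 13.53. High 1 and high 3 thus lay under every low sow, and the other 4 high sows lay within or just above the range of the low group. The group difference was -0.20 ± 0.19 (SE, adjusted p = 0.935, limma), and -0.052 without high 3.

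FDX1, the electron donor of CYP11A1, followed much the same order of sows. Its brightest probe set read 13.48, 14.15, 13.23, 14.24, 14.00 and 13.75 in high sows 1 to 6 and 14.01, 14.12, 13.84, 13.61, 13.94 and 13.77 in low sows 1 to 6. Again high 3 and high 1 were lowest and high 4 highest, and the groups overlapped. The second probe set spanned 10.34 to 11.73 in high sows and 10.96 to 11.75 in low sows. The differences were -0.071 ± 0.17 and -0.12 ± 0.23 (SE), with adjusted p of 0.986 and 0.985 (limma). Without high 3 they were 0.044 and 0.054, of the opposite sign.

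FDXR, which reduces FDX1, ordered the sows differently. Its brightest probe set read 9.90, 9.39, 9.53, 9.87, 9.57 and 9.97 in high sows 1 to 6 and 9.35, 9.74, 9.45, 9.60, 9.58 and 9.71 in low sows 1 to 6. High 1, which was among the lowest sows for CYP11A1 and FDX1, was the second highest here, and low 1 was the lowest. The other FDXR probe sets ran from 7.37 to 8.32 and from 6.39 to 7.14 over the 12 sows, with high 2 lowest in both. The brightest probe set differed by 0.14 ± 0.12 (SE) between groups and the others by -0.13 ± 0.17 and -0.15 ± 0.13, so the probe sets of this gene did not share a sign. Their adjusted p values were 0.931, 0.962 and 0.929 (limma).

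HSD3B1, which makes progesterone itself, spanned the widest range of the 6 genes. Its second probe set read 12.09, 13.10, 11.55, 13.64, 13.01 and 12.77 in high sows 1 to 6 and 12.49, 12.55, 12.21, 12.43, 12.99 and 11.81 in low sows 1 to 6. From high 3 to high 4 this was a 4.28-fold span. The brightest probe set spanned 12.24 to 13.54 in high sows and 12.85 to 13.27 in low sows, with the same sows lowest and highest. High minus low was 0.060 ± 0.19 and 0.28 ± 0.32 (SE) for the brightest and second probe set, with adjusted p of 0.989 and 0.948 (limma). With a sow left out the second ran from 0.090 (without high 4) to 0.51 (without high 3), and the brightest from -0.044 to 0.22 without the same sows. With the 3' minus 5' actin difference as a covariate these were -0.33 and -0.41, with adjusted p of 0.333 and 0.436. Over the 23 alternative settings the adjusted p ran from 0.333 to 0.9999 for the brightest and from 0.436 to 0.9999 for the second probe set.

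POR, the microsomal reductase, was read by a single probe set at 9.69, 9.60, 9.24, 9.81, 9.77 and 9.91 in high sows 1 to 6 and 9.51, 10.10, 9.53, 9.66, 10.02 and 9.79 in low sows 1 to 6. High 3 was again lowest, while low 2 and low 5 were highest. The difference was -0.097 ± 0.14 (SE, adjusted p = 0.965, limma), and -0.0094 without high 3.

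**Figure D1:**
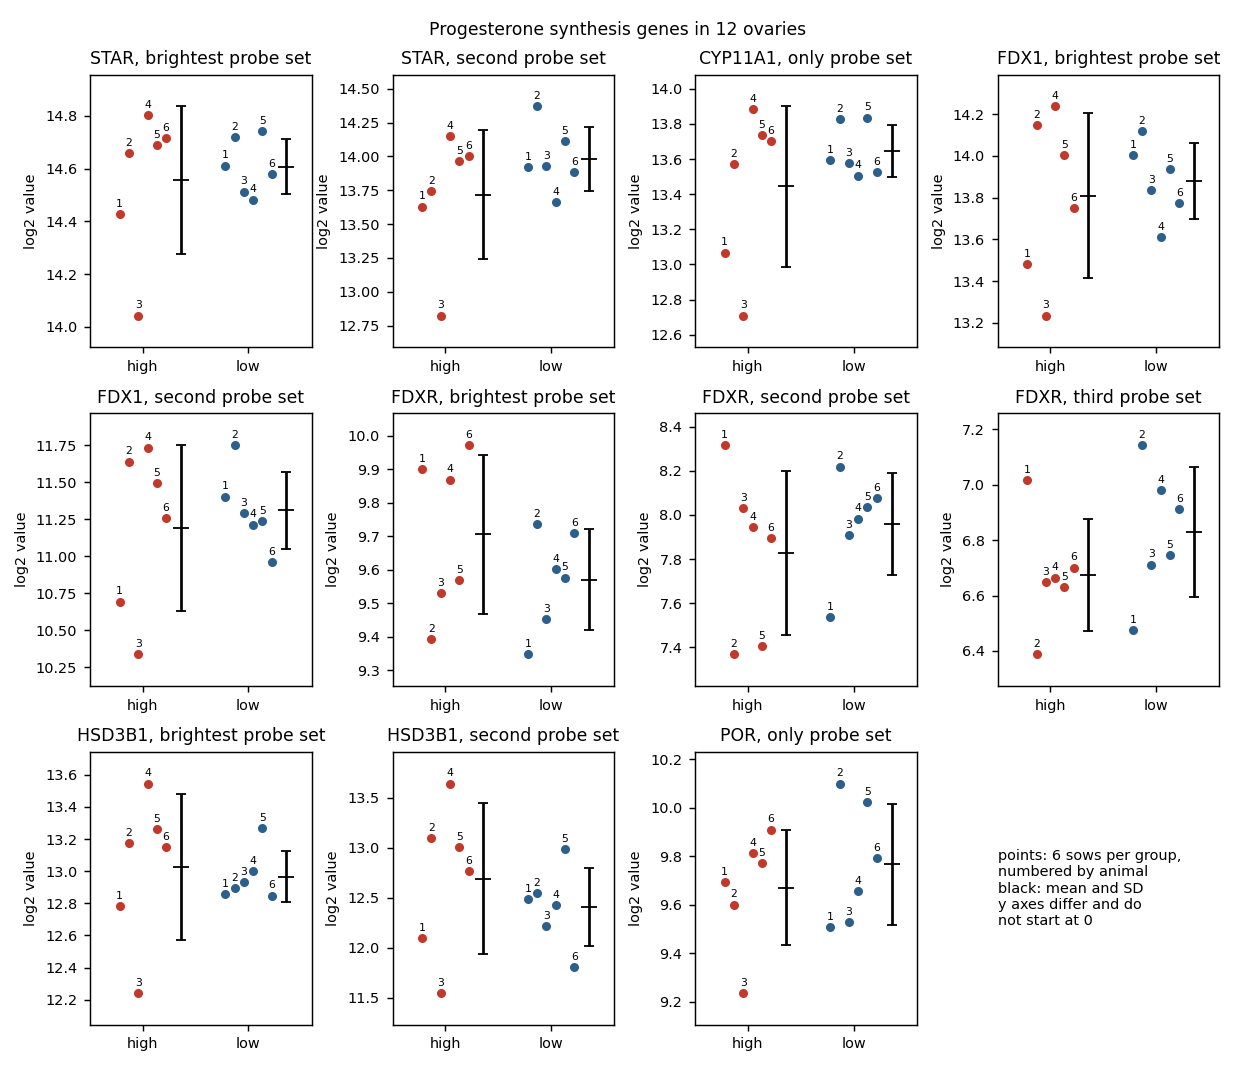
Log2 values of the 11 probe sets (y axes, each on its own scale) in 6 high (red) and 6 low (blue) prolificacy sows, numbered by animal, with mean and SD in black. High 3 is the lowest point in all 8 panels of STAR, CYP11A1, FDX1, HSD3B1 and POR and in none of the 3 panels of FDXR.

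Between the prolificacy groups, therefore, none of the 6 genes changed at the adjusted threshold. Of the 11 probe sets 0 passed an adjusted p of 0.05 in limma, beside 0 of 13390 in all (0%), and 0 had an unadjusted p under 0.05, beside 755 in all (5.64%). The values of the groups overlapped in all 11, whereas they did not overlap in 0.471% of all probe sets. High minus low was negative in 8 of 11, with a median of -0.097, where the median of all probe sets tested was -0.010. Of all genes tested, each at its brightest probe set, 56.4% were lower in the high group. The 11 probe sets read 6 genes and are not independent. Limma with trend and robust moderation and with array weights also called 0 probe sets. The 95% intervals reached from 0.26 to 0.68 to either side of the differences. For CYP11A1 the interval ran from -0.60 to 0.21, that is from 0.658 to 1.15 times the low level, and for the second HSD3B1 probe set from 0.756 to 1.95 times. Differences of that size were not resolved with 6 sows per group.

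The group differences changed when the actin difference was added as a covariate and when single sows were left out. The actin 3' minus 5' difference had a mean of 2.59 among high and 2.12 among low prolificacy sows. With it as a covariate, 9 of 11 probe sets were lower in the high group, where the median difference of all probe sets was -0.0018. An unadjusted p under 0.05 was found in 5 of the 11, and in 16.3% of all probe sets in that fit. CYP11A1 then differed by -0.55 (adjusted p = 0.203 in limma, from 0.203 to 0.9999 over all settings tried) and the second STAR probe set by -0.59. None of the 13390 passed the adjusted threshold in that fit (0%). The covariate itself differed between the groups, so the 2 cannot be fully told apart in that fit. The part of RNA integrity in the result was not tested. Without high 3, 6 of 11 probe sets were higher in the high group, where the median difference of all probe sets was -0.016.

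**Figure D2:**
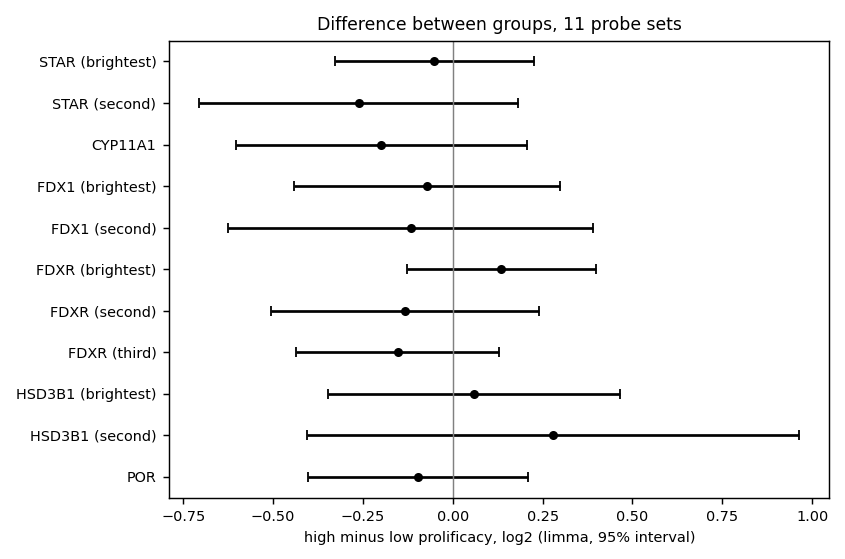
High minus low prolificacy on the log2 scale (x axis) for the 11 probe sets, with 95% intervals from limma (n = 6 sows per group). Every interval crosses 0, and the widest, that of the second HSD3B1 probe set, runs from -0.40 to 0.96.

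The sows of the high group differed more among themselves than those of the low group. The SD of the high group was the larger in 9 of 11 probe sets, as it was in 73.8% of all probe sets tested, and at least 2 times that of the low group in 5 of 11, against 24.3% of all. CYP11A1 had an SD of 0.46 among high and 0.15 among low prolificacy sows, a ratio of 3.07, and the brightest probe sets of HSD3B1 and STAR had ratios of 2.89 and 2.65. Without high 3 these ratios were 2.11, 1.73 and 1.32, and 1 of 11 probe sets kept a ratio of at least 2 (19.8% of all). High 3 was the lowest of all sows in 8 of 11 probe sets and high 4 the highest in 5. These 2 sows also marked the ends of the granulosa marker mean, at 1.99 in high 3 and -2.59 in high 4.

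STAR, CYP11A1, FDX1 and HSD3B1 varied together from sow to sow, and no relation of FDXR with them passed the test. Each gene was taken at its brightest probe set. Across all 12 sows STAR and CYP11A1 correlated at r = 0.957 (rho = 0.958). The permutation p of 1e-05 was the smallest that 100000 permutations can give, and the adjusted p was 0.00033 over the 33 relations computed. CYP11A1 and its electron donor FDX1 correlated at r = 0.874 (rho = 0.741, permutation p = 0.00023, adjusted p = 0.00165). STAR correlated at 0.878 with FDX1 and at 0.890 with HSD3B1 (adjusted p = 0.00165 for both, permutation test). CYP11A1 correlated at 0.853 with HSD3B1 (adjusted p = 0.00165) and FDX1 at 0.775 with HSD3B1 (adjusted p = 0.0104). By rank the last pair did not pass (rho = 0.615, adjusted p = 0.0712).

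FDX1 and its own reductase FDXR correlated at r = -0.116 (rho = -0.217, permutation p = 0.719, adjusted p = 0.765). FDXR with CYP11A1 gave 0.084, with STAR 0.215 and with HSD3B1 0.214, none past the threshold. POR lay between, at 0.789 with STAR (adjusted p = 0.00883) and 0.747 with CYP11A1 (adjusted p = 0.0137). With FDX1 it gave 0.526 (adjusted p = 0.124), with HSD3B1 0.607 (adjusted p = 0.0742) and with FDXR 0.527 (adjusted p = 0.124). The rank correlation of POR with FDXR was higher, rho = 0.699 (adjusted p = 0.0374). Of the 15 pairs 8 passed, and the difference between FDXR and the other genes was not itself tested.

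The pairs of probe sets of STAR, FDX1 and HSD3B1 correlated at 0.933, 0.949 and 0.927. Those of FDXR correlated at 0.831, 0.601 and 0.546, so part of the FDXR signal was not shared by its probe sets. With the dimmest probe set of each gene 7 of 15 pairs passed, with r of 0.933 for STAR and CYP11A1 and -0.165 for FDX1 and FDXR. The pair lost was STAR with HSD3B1, which gave 0.626 (adjusted p = 0.0704, permutation test).

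**Figure D3:**
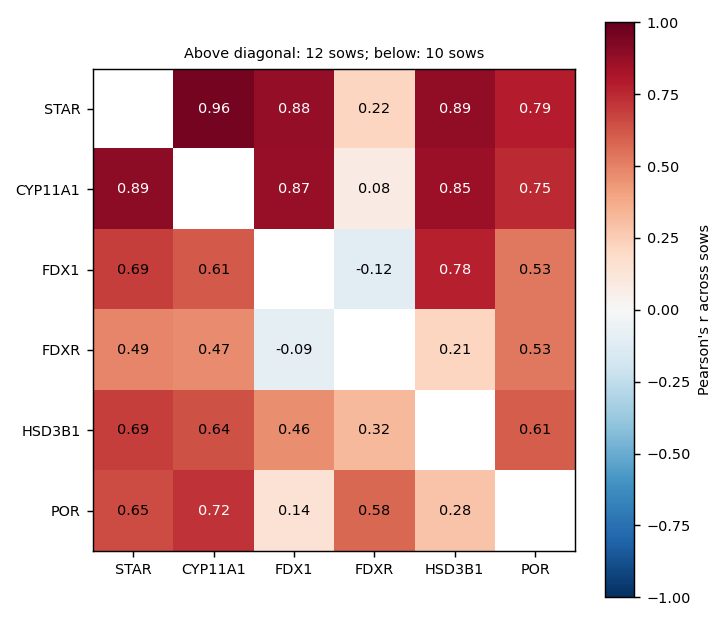
Pearson's r between the brightest probe sets of the 6 genes across sows, in colour and figures. Above the diagonal are all 12 sows, and below it the 10 sows left without the pair farthest from the median of the gene named first, where only STAR with CYP11A1 (0.89) passes the adjusted threshold.

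Most calls depended on which sows were included. With the 2 sows farthest from the median left out, STAR and CYP11A1 kept an r of 0.894 (adjusted p = 0.0205, permutation test). The other 5 pairs among STAR, CYP11A1, FDX1 and HSD3B1 gave 0.463 to 0.693, and of all 15 pairs 1 passed. FDXR gave 0.487 with STAR and 0.471 with CYP11A1, higher than over 12 sows and within that range. Neither passed (adjusted p = 0.227 and 0.243, permutation test). FDXR with FDX1 gave -0.086. CYP11A1 with POR gave 0.721, close to its value over 12 sows, but did not pass (adjusted p = 0.0914). Such a reduced set has a narrower range and fewer sows. For STAR, CYP11A1 and FDX1 those sows were high 1 and high 3. Without high 3 alone the 6 pairs among STAR, CYP11A1, FDX1 and HSD3B1 gave 0.578 to 0.892, and 4 of 15 passed. STAR with CYP11A1, FDX1 and HSD3B1, and CYP11A1 with FDX1, still passed (0.892, 0.797, 0.748 and 0.771). The pairs lost without that sow were FDX1 with HSD3B1 (0.578), CYP11A1 with HSD3B1 (0.666), STAR with POR (0.601) and CYP11A1 with POR (0.517). Within the high group the 6 pairs among STAR, CYP11A1, FDX1 and HSD3B1 gave 0.892 to 0.982. Of all 15 pairs 4 passed there in exact permutation tests. In the low group, whose sows spread less, STAR with CYP11A1 gave 0.929 (exact p = 0.0125), STAR with FDX1 0.79 and CYP11A1 with FDX1 0.757. HSD3B1 gave less there, 0.522 with CYP11A1, 0.408 with STAR and -0.070 with FDX1. No pair passed in the low group after adjustment.

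**Figure D4:**
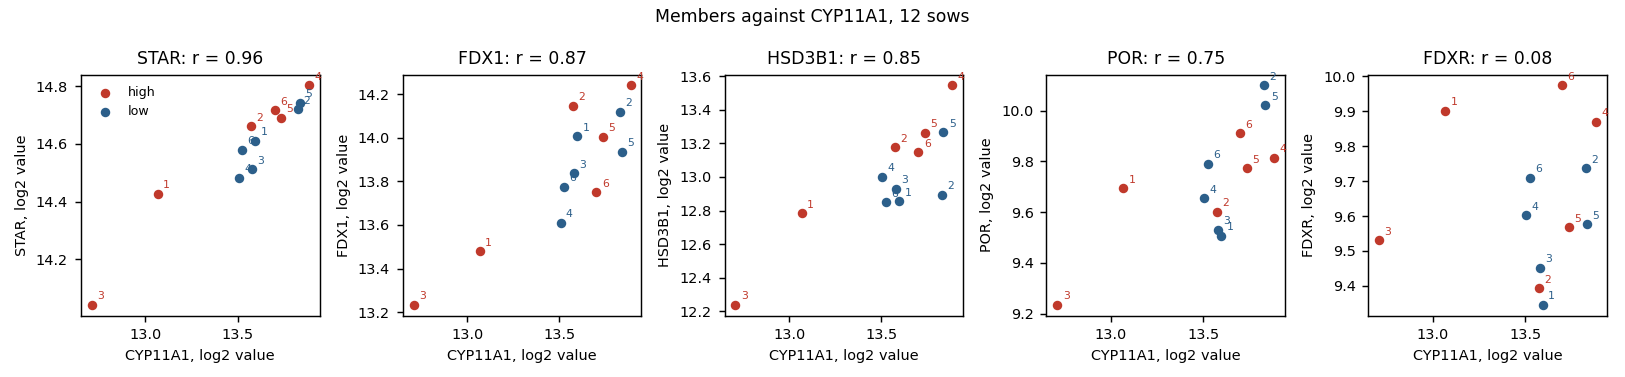
Log2 values of 5 genes (y axes) against CYP11A1 (x axis) in 6 high (red) and 6 low (blue) sows, numbered by animal. STAR follows CYP11A1 along its whole range (r = 0.96), while FDXR gives r = 0.08.

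Over the 12 sows the 4 genes that varied together were lower in ovaries with a higher granulosa marker mean, least firmly for STAR. That mean was not scaled by spread, so CYP19A3 (3.86 to 12.74), HSD17B1 (5.20 to 12.44) and INHA (4.15 to 11.43) weighed most. The granulosa marker mean correlated with HSD3B1 at r = -0.813 (rho = -0.881, permutation p = 0.00077, adjusted p = 0.00363) and with FDX1 at -0.776 (rho = -0.727, permutation p = 0.00316, adjusted p = 0.0104). With CYP11A1 it gave -0.678 (adjusted p = 0.0302) and with STAR -0.673 (adjusted p = 0.0288). FDXR gave 0.053 and POR -0.315 (adjusted p = 0.87 and 0.422, permutation test). Without the 2 sows farthest from the median, high 2 and high 4, HSD3B1 gave -0.758 and CYP11A1 -0.768 (adjusted p = 0.0405 for both). FDX1 and STAR then gave -0.654 and -0.671, which no longer passed. Without high 3, CYP11A1, STAR and FDX1 gave -0.611, -0.637 and -0.727, with adjusted p of 0.113, 0.113 and 0.0553. CYP11A1 and STAR also missed the threshold without high 1 (-0.622 and -0.647) and without high 4 (-0.638 and -0.619). HSD3B1 passed with each sow left out in turn. Within groups HSD3B1 gave -0.865 in the high (exact p = 0.0153) and -0.608 in the low group (exact p = 0.188). FDX1 gave -0.961 and -0.264 (exact p = 0.00278 and 0.611), CYP11A1 -0.843 and -0.562 (exact p = 0.0486 and 0.257) and STAR -0.815 and -0.276 (exact p = 0.0278 and 0.56). The dimmer STAR probe set gave -0.524 over the 12 sows (adjusted p = 0.139, permutation test).

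The granulosa mean itself moved with the sign of RNA integrity. High 2 and high 4 had its lowest values (-2.18 and -2.59) and the highest actin 3' minus 5' differences (3.23 and 2.98), while high 3 had its highest value (1.99) and the lowest actin difference (1.95). Over the 12 sows the 2 measures correlated at r = -0.746 (permutation p = 0.00444; rho = -0.587, permutation p = 0.049; 1 relation outside the 33, not adjusted). Without high 2 and high 4 this was -0.316 (permutation p = 0.363), so it rests on those sows. With the granulosa mean regressed out, the actin difference gave 0.218 with HSD3B1, 0.048 with STAR, -0.030 with FDX1 and -0.285 with CYP11A1. None of these passed the threshold. The granulosa relations with the actin difference regressed out were not computed, so the 2 measures were not fully separated.

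With the granulosa mean regressed out of both genes, STAR and CYP11A1 kept an r of 0.921 (adjusted p = 0.00216 over the 27 relations left, permutation test), and STAR and POR gave 0.821. FDX1 with HSD3B1 was then 0.394, and 7 of 15 pairs passed. With the granulosa mean as a covariate the group difference of CYP11A1 was -0.29 and that of the brightest HSD3B1 probe set -0.037.

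Among the other measures, the luteal marker mean correlated with FDX1 at r = 0.855 (rho = 0.916, permutation p = 0.00031, adjusted p = 0.0017) and with STAR at 0.665 (adjusted p = 0.0268). CYP11A1 gave 0.598 (adjusted p = 0.0661) and HSD3B1 0.544 (adjusted p = 0.108). The relation with STAR missed the threshold without high 3 (0.634) or high 4 (0.612), and that with CYP11A1 passed it without high 2 (0.680) or high 6 (0.647). The dimmer STAR probe set gave 0.54 with the luteal mean (adjusted p = 0.115, permutation test). The dimmer FDX1 probe set gave 0.728 (adjusted p = 0.0177, permutation test). This list had 5 measured genes, RLN2, PTGFR, PTGFRN, LHCGR and VEGFA, of which LHCGR and VEGFA are also expressed outside luteal cells. The mean was not scaled by spread, so LHCGR (10.09 to 12.81) and VEGFA (9.66 to 11.55), with the widest spans, weighed most. The 5 did not move as one: with STAR, PTGFR gave an r of 0.978, VEGFA 0.895, PTGFRN 0.768 and RLN2 0.751, but LHCGR -0.324. With FDX1, VEGFA gave 0.975 and LHCGR -0.036. The actin 3' minus 5' difference correlated with HSD3B1 at 0.691 (rho = 0.692, permutation p = 0.0139, adjusted p = 0.0305). It gave 0.566 with FDX1, 0.525 with STAR, 0.367 with CYP11A1, 0.210 with POR and 0.146 with FDXR, none past the threshold. Without the 2 sows farthest from its median HSD3B1 gave 0.689 (adjusted p = 0.0914), and without high 3 or high 4 alone 0.707 and 0.584, neither past the threshold. Without low 2, FDX1 passed at 0.671, as did the pair of HSD3B1 and POR at 0.763. The part of RNA integrity in these relations was not tested.

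**Figure D5:**
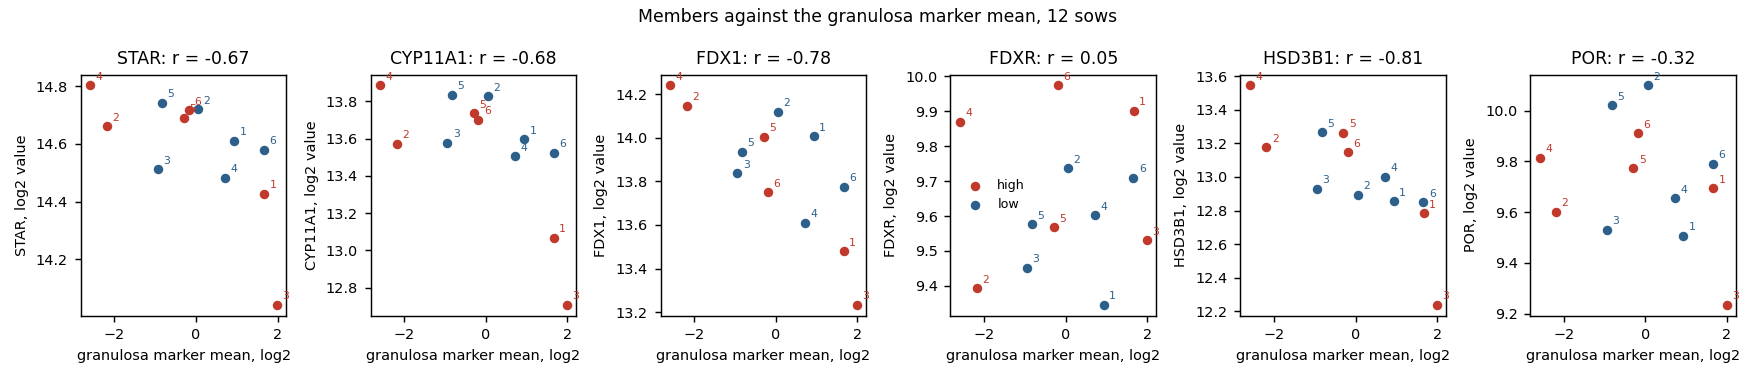
Log2 values of the 6 genes (y axes) against the mean of 5 granulosa markers, centred on the 12 sows (x axis), in high (red) and low (blue) sows numbered by animal. HSD3B1 and FDX1 decline from left to right (r = -0.81 and -0.78), and FDXR gives r = 0.05.

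High correlations with these genes were common in the table. Ranked by r with STAR among 5078 other genes, each by its brightest probe set, CYP11A1 was number 7, HSD3B1 number 74, FDX1 number 103, POR number 333 and FDXR number 2024. The 3 genes most like STAR over the 12 sows were RDH11, a retinol dehydrogenase (r = 0.980), PTGFR (0.978) and ME1, the cytosolic malic enzyme, which makes NADPH (0.971). Most like CYP11A1 were SCD, the stearoyl-CoA desaturase (0.978), LOC100521082 (0.975) and RASGRP1, an exchange factor for Ras (0.974). Most like FDX1 were VEGFA, the vascular endothelial growth factor (0.975), the peroxiredoxin PRDX6 (0.963) and NOP10, of the box H/ACA ribonucleoproteins (0.949). PTGFR and VEGFA were themselves among the luteal markers used above.

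Most like HSD3B1 were TM7SF2, a sterol reductase of cholesterol synthesis (0.940), GABARAPL1, an autophagy protein (0.921), and RNF128, a ubiquitin ligase (0.920). Most like POR were C1H18orf32 (0.936), PEX3, needed to build peroxisomes (0.919), and NCOA4, the ferritin receptor of autophagy (0.915). FDXR had no gene as close, its nearest being TM9SF4 (0.807), TCEANC (0.789) and ZER1 (0.771). No gene was among the nearest 3 of more than 1 of the 6 genes.

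Other genes of the pathway, listed by role and each taken at its brightest probe set, also gave 0 calls between the prolificacy groups (limma, adjusted over all probe sets), beside 0 of 5079 genes tested. Of 23 genes of electron transfer and NADPH supply 15 were measured, 2 higher and 13 lower in the high group, with a median difference of -0.18 against -0.027 over all genes tested, of which 56.4% were lower and 43.6% higher in the high group. The mitochondrial malic enzyme ME3, which makes NADPH, stood at 7.86 ± 0.30 against 8.26 ± 0.14 (SD, n = 6 each), a difference of -0.40 (unadjusted p = 0.0125, adjusted p = 0.782 in limma). The outer mitochondrial cytochrome CYB5B differed by -0.49, the cytochrome b5 reductase CYB5R1 by -0.23 and ISCU, the scaffold on which iron-sulphur clusters are built, by -0.17.

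Of 20 other enzymes served by FDX1 or POR 11 were on the array and 6 were measured, 2 higher and 4 lower. CYP27A1, the sterol 27-hydroxylase that FDX1 also supplies, differed by 0.28, the haem oxygenase HMOX1 by 0.35 and CYP51, the sterol demethylase of cholesterol synthesis, by -0.25. CYP19A3 differed by -1.19, with group SDs of 3.66 and 2.12. Of 27 other steroid-converting enzymes 12 were measured, 3 higher and 9 lower, with a median of -0.18. The mitochondrial dehydrogenase HSD17B10 differed by -0.23, HSDL2 by -0.30, AKR1CL1 by -0.28 and HSD17B14 by -0.59, with adjusted p from 0.874 to 0.904 (limma).

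Of 26 genes of cholesterol supply 16 were measured, 5 higher and 11 lower, with a median of -0.10. VDAC2, a channel of the outer mitochondrial membrane, differed by -0.25 (unadjusted p = 0.0241, adjusted p = 0.834 in limma), ACBD3 by 0.11, VDAC1 by -0.10 and the endosomal STARD3 by -0.10. Of 31 regulators 16 were measured, 12 higher and 4 lower, with a median of 0.086. NR4A2, an orphan nuclear receptor, differed by 0.88, the protein kinase A subunit PRKACB by 0.19, NR2F2 by 0.27 and the cyclic AMP response modulator CREM by 0.46. NR5A1 and NR5A2, the nuclear receptors known to drive these promoters, were named after their values were seen and differed by 0.024 and -0.10.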

How the data were processed

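Log2 expression values per probe set of 12 ovary samples, 1 column per sow, were used as deposited. The authors ran GCOS and GCRMA, per the submitters' processing notes, without version numbers; GCRMA corrects background, normalizes between arrays and summarises probes. That the values are on a log2 scale follows from their range, 0.97 to 15.34. GCRMA compresses dim signals, and the number of arrays limits the precision. Names came from the array annotation (10099 probe sets with 1 symbol, 198 with several, 13826 with none). The names of 62 porcine control probe sets appeared displaced by 21 places against the spike controls. This was inferred from their signals: the mean gap to the matching spike controls was 4.83 as named and 0.44 when moved. The actin difference uses the names moved back.

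Probe sets above 4 in at least 6 sows, without the 124 controls, were tested: 13390. High and low were compared with limma 3.58.1 in R 4.3.3 without covariates, two-sided, with Benjamini-Hochberg adjustment at 0.05. Correlations used the brightest probe set and two-sided tests of 100000 permutations, or all orders of 6 sows within groups (smallest p 0.00139), adjusted over 33 relations (27 with the granulosa mean regressed out). Replicate samples are separate animals, and their relatedness is not given in the labels. Steps were tested on simulated data. Named genes were every member probe set, up to 4 genes per pathway list by smallest p, and the 3 genes most like each member. Members and lists were chosen with earlier results of these data known. Alternatives were filters, normalizations, moderation, array weights, covariates, the replicate block and sows left out. Leaving out the 4 sows with albumin (ALB) above 4 (high 5 and low 1, 3 and 4), the dimmest probe sets, each sow left out of a correlation, regressing out the granulosa mean, and the relation of the granulosa mean with the actin difference were chosen after seeing the data.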

Additional observations from a re-analysis of the deposited data

Results flagged for a closer look

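The brightest HSD3B1 probe set read 13.27 in low prolificacy sow 5, apart from the other 5 sows of its group, with a gap to the nearest of 0.636 of the group's range, above the 95% critical value of Dixon's test for 6 samples. It was the only one of 22 groups of 6 (11 probe sets in each prolificacy group) to stand out so, and chance gives about 1 in 20. The second HSD3B1 probe set also had its highest low group value in that sow, 12.99.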

How the results depend on the processing

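No setting brought one of the 11 member probe sets past the adjusted threshold: adjusted p ran from 0.203 to 0.9999 over 253 values. The count of all probe sets called ran from 0 to 1 with a sow left out, the 1 without low 1, and was 0 otherwise. Signs turned for some differences, also for that of 0.28 of the second HSD3B1 probe set. The brightest STAR probe set gave 0.042 with array weights and 0.051 without high 2 and 3, and POR 0.056 and 0.030. The brightest HSD3B1 probe set gave -0.33 with the actin difference and -0.037 with the granulosa mean as a covariate and -0.024 without the sows of high albumin; the second gave -0.41, and the second FDXR probe set 0.055, with the actin difference. With a sow left out the brightest STAR probe set ran from -0.10 to 0.051, FDX1 from -0.16 to 0.044 and -0.23 to 0.054, and brightest HSD3B1 from -0.044 to 0.22. The cause was not tested.

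Of 15 member pairs 8 passed; 1 did without the 2 farthest sows, 4 within the high and 0 within the low group, and 4 to 9 with a sow left out (4 without high 3). Within the low group FDX1 with HSD3B1 gave -0.0703, and the luteal mean 0.279 with FDXR and -0.321 with HSD3B1. The actin difference gave -0.151 with FDXR within the high group. With the dimmest probe sets FDXR gave -0.0354 with CYP11A1, -0.344 with HSD3B1 and -0.481 with actin. With granulosa regressed out the actin difference gave -0.285 with CYP11A1, -0.0303 with FDX1 and -0.0396 with POR. With a sow left out FDXR ran from -0.316 to 0.0512 with FDX1, -0.0733 to 0.324 with CYP11A1, -0.152 to 0.322 with granulosa, -0.319 to 0.101 with luteal and -0.0352 to 0.601 with actin. Quantile normalization gave the same 8 pairs; Spearman's rho also gave 8, of which 7 were shared (FDX1 with HSD3B1 lost, FDXR with POR gained).

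The labels number the sows 1 to 6 in each group but name no pairs, and deviations of same-numbered sows correlated from -0.455 to 0.168, so the number was not taken as a pairing. With it as a replicate block 0 probe sets passed, CYP11A1 again differed by -0.20, and no call changed.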

Other observations

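Several steroid-converting enzymes gave little signal in these ovaries, while others were bright. Which of them act on progesterone here was not tested. AKR1CL1 ran from 12.76 to 13.58 and HSD17B4 from 11.47 to 12.80. CYP17A1, which starts androgen synthesis, lay between 2.37 and 5.23 and above 4 in 3 of 12 sows. The 5 alpha-reductase SRD5A2 and AKR1C1 lay under 2.26 in every sow. Apart from these enzymes, the mitochondrial P450s CYP27B1 and CYP24A1, which FDX1 also serves, lay under 4. The prolactin receptor PRLR ran from 1.82 to 2.40. GCRMA draws such dim probe sets to a common floor, so no difference between sows is read from them.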
